A study of Mus musculus with 6 samples.

Results

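The genes described here are 7 genes of cholesterol supply that sterol regulatory element binding proteins (SREBPs) control or belong to: the factor genes Srebf1 and Srebf2, the feedback regulator Insig1, and the synthesis enzyme genes Hmgcs1, Idi1, Sqle and Lss. They were taken by name, as a pathway, with no cutoff on their values, and each was read from its probe set with the highest mean level among probe sets annotated to 1 gene symbol. All 7 were measured, out of 19938 genes in all. RNA of epithelial cells isolated from mouse small intestine at E18.5, late in embryonic development, was hybridised to 6 whole-transcript arrays. Conditional knockout of both Gata4 and Gata6 (Gata4Gata6 cKO) is the label of 3 arrays, and the other 3 are of control mice at the same stage. The sources used here do not give the Cre driver, the deleted exons, the genotype of the controls or any pooling of animals. They also do not say whether each array had its own animal, so p-values measure the spread between these arrays, which may be technical.

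Cells make cholesterol from acetyl-CoA through mevalonate, isoprenoids, squalene and lanosterol. SREBP precursors sit in the endoplasmic reticulum with the escort protein SCAP. When membrane sterol is low, SCAP carries them to the Golgi, where proteases release the active factor. When sterol is high, INSIG proteins hold SCAP back, and INSIG1 is itself made from an SREBP target gene. SREBP-2, from Srebf2, mainly drives cholesterol synthesis and uptake genes, and SREBP-1, from Srebf1, mainly drives fatty acid synthesis genes. Enterocytes also take up cholesterol from bile and diet.

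Promoter sequence was available for 6 of the 7 genes, from RefSeq on GRCm38.p6. Those of Insig1 and Hmgcs1 are shown because these SREBP target genes had the largest changes of opposite sign among the 7. Each run is the 250 bases before the annotated start, 5′ to 3′ in the direction of the gene, with matches in capitals to the sterol element core TCACNCCAC, the E box CACGTG and the CCAAT box CCAAT on either strand, the last appearing as ATTGG on the other strand. Insig1 lies on the plus strand, at chr5:28071162-28071411, and Hmgcs1 on the plus strand, at chr13:119690101-119690350.
Insig1: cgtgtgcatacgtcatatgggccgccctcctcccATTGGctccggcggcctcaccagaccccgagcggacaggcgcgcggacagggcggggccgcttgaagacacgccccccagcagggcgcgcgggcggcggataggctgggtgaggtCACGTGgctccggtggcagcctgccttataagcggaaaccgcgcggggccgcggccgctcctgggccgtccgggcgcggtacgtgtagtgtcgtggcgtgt
Hmgcs1: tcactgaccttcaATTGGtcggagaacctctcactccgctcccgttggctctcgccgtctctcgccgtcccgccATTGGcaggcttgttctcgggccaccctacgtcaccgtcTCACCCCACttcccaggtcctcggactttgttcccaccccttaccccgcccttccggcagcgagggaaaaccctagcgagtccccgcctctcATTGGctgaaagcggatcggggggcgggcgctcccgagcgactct
The Hmgcs1 run holds the sterol element core 137 bases before the start and 3 CCAAT boxes, all on the other strand. The Insig1 run holds an E box 101 bases before the start and a CCAAT box 216 bases before it. Of 32851 RefSeq windows of this length, 1.05% hold the sterol core, 6.02% the E box and 33.8% the CCAAT box. Of the 8 windows of these genes, with 3 starts for Srebf1, 1 holds the sterol core, 1 the E box and 7 a CCAAT box. The GC box GGGCGG, in lower case above, stands in 7 of the 8 and in 32.7% of all windows. No match of these motifs in the 8 windows overlaps another. The GATA letters AGATAA and TGATAA, which stand in 9.99% and 7.94% of all windows, are in none of the 8. A match is a description of letters and shows no binding.

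Some arrays stood apart from their labels or their group. Gata4 and Gata6, the targeted genes, were higher on the arrays labelled cKO, by 0.47 ± 0.075 and 0.45 ± 0.065 on the log2 scale (SE, n = 3; limma adjusted p = 0.0101 and 0.0067), opposite to a loss, so all directions given here follow the labels and have no check from the targeted genes. Both calls were lost without control 3 and cKO 2 (adjusted p = 0.0646 and 0.0503), with both genes still higher. Whether these probe sets lie outside the deleted part is not given, and if they do they check nothing. Epithelial markers averaged 12.23 to 12.38 on the arrays labelled cKO and 12.12 to 12.14 on the control arrays. Of the 10, 3 were higher at a limma adjusted p under 0.05, against 5.52% of all genes, and 0 were lower. All but Vil1, named after its values were seen (−0.11 ± 0.096, adjusted p = 0.529), had changes above 0. All 12 hepatocyte markers and all 7 erythroid markers measured were highest on cKO 2. Of the 12, 1 passed, Ambp, named after its values were seen (2.52 ± 0.41, limma adjusted p = 0.0106). It stood at 11.49, 12.72 and 11.81 on the arrays labelled cKO, against 9.11, 9.14 and 10.2 on the control arrays. It is part of the list average and of the covariate used below. The hepatocyte list averaged 7.93, 12.62 and 8.02 on the arrays labelled cKO and 9.10, 7.64 and 10.62 on the control arrays, and the erythroid list averaged 7.17 to 11.17 on the arrays labelled cKO and 7.37 to 9.02 on the control arrays. Mesenchymal and muscle markers averaged 8.18 to 9.02 on the arrays labelled cKO and 7.9 to 8.08 on the control arrays. Of the 9, 0 passed in either direction. The largest changes were those of Dcn and Acta2 (1.85 and 1.73, limma adjusted p = 0.058 and 0.0588), and that of Pdgfra was below 0 (−0.55, adjusted p = 0.111). These genes were named after their values were seen. No marker of any list was at 0. The part of these other cell types in the results was not tested. Some values are also given with cKO 2 left out, or with the hepatocyte and erythroid level as a covariate. Leaving out cKO 2 removes all that is particular to it, and its immune (9.45) and endothelial (8.62) averages were also the highest. The lists behind the covariate were highest on cKO 2 too, so neither fit can assign a change to a cell type.

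Insig1 fell 2.16-fold on the arrays labelled cKO, and none of the SREBP factor and enzyme genes passed the test. Changes of Hmgcs1, Sqle and Srebf2 were above 0, and those of Idi1, Lss and Srebf1 below 0. Of the 7 genes, 1 passed the threshold (limma, Benjamini-Hochberg adjusted p under 0.05 over 19938 genes), a share near the 12.9% of all genes tested. In the direction of lower levels this was 1 of 7, against 7.42% of all genes, and in the direction of higher levels 0 of 7, against 5.52%. Over the 7 genes, 3 changes were above 0 and 4 below, with a median of −0.27 log2 against −0.01 over all genes. The groups did not overlap for 4 of the 7, namely Insig1, Srebf1, Srebf2 and Hmgcs1, against 32.6% of all genes. In bulk RNA, fewer cells of a type and less RNA per cell cannot be told apart. Levels of the 7 genes ran from 9.82 to 12.53 on the log2 scale.

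**Figure D1:**
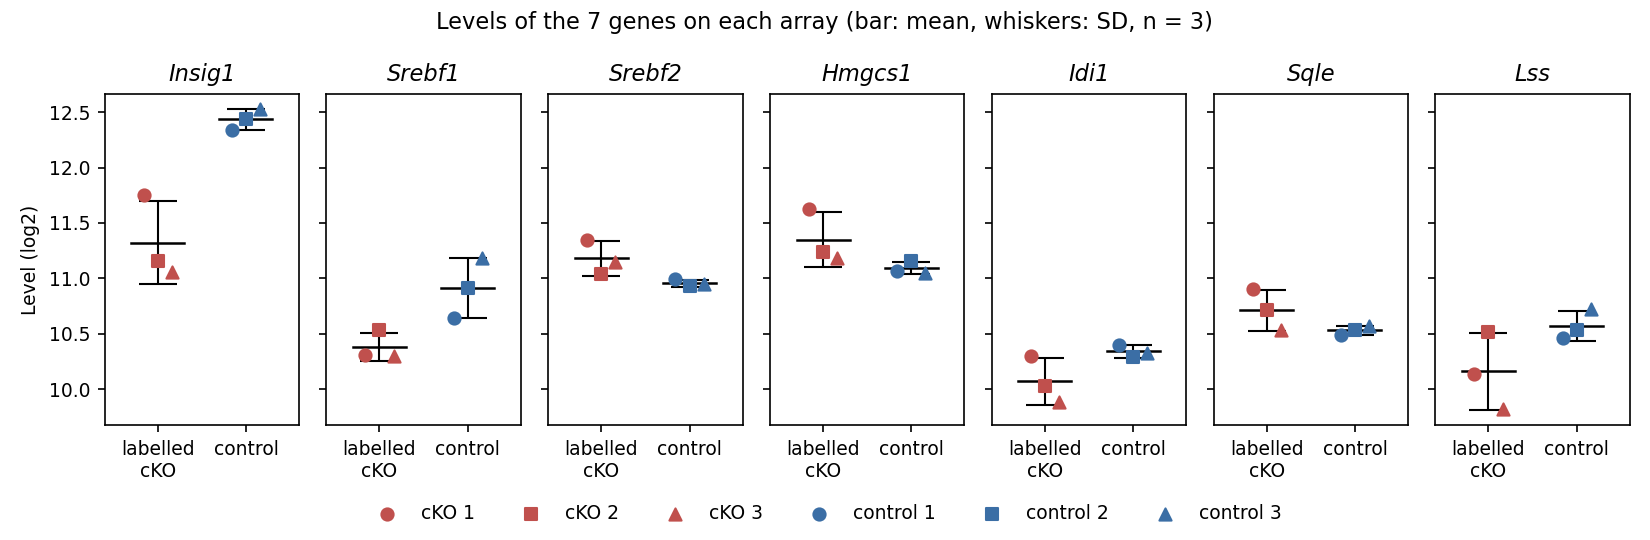
Level of each gene (log2, vertical axis) on the 3 arrays labelled cKO and the 3 control arrays, with each array as a point, the group mean as a bar and the SD as whiskers. Insig1 has the widest gap, with 11.75 on its highest array labelled cKO and 12.34 on its lowest control array.

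INSIG1 is the membrane protein that retains SCAP and the SREBP precursors. Insig1 (probe set 10520362) stood at 11.75, 11.16 and 11.06 on the arrays labelled cKO, against 12.34, 12.44 and 12.53 on the control arrays. All 3 arrays labelled cKO were low, and cKO 1 was the least low. The change was −1.11 ± 0.19 (SE, n = 3; 95% interval −1.56 to −0.67), a level 2.16-fold lower, with a limma adjusted p of 0.0118. With the hepatocyte and erythroid level as a covariate it was −1.10 (adjusted p = 0.0124), and without cKO 2 it was −1.03 (adjusted p = 0.0256). The call was lost without control 2 (adjusted p = 0.0508), without control 3 (0.0534) and without control 3 and cKO 2 together (−0.98, adjusted p = 0.0821), which leaves fewer arrays. Over the 6 fits with 1 array left out the change ran from −1.33 to −0.98. The change of its relative Insig2, which has the same anchoring role and is named here after its values were seen, was −0.12 ± 0.096 (adjusted p = 0.493).

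The SREBP factor genes had changes of opposite sign, neither past the threshold. Srebf1 (probe set 10386473), which encodes the factor that favours fatty acid genes, stood at 10.31, 10.53 and 10.3 on the arrays labelled cKO, against 10.64, 10.91 and 11.18 on the control arrays. Its highest array labelled cKO and its lowest control array were 0.11 apart. The change was −0.53 ± 0.15 (95% interval −0.89 to −0.17, limma adjusted p = 0.0712), and the adjusted p ran from 0.0351 to 0.184 over 16 alternatives, 5 of which passed. One of the 5 was the fit without control 1 (−0.67, adjusted p = 0.0405), while without control 3 the change was −0.40 (adjusted p = 0.157). Srebf2 (probe set 10425695), which encodes the factor that favours cholesterol genes, stood at 11.35, 11.04 and 11.15 on the arrays labelled cKO, against 10.99, 10.93 and 10.95 on the control arrays. The change was 0.22 ± 0.096 (95% interval −0.0083 to 0.45, adjusted p = 0.203), or 0.14 without cKO 1, and the groups were 0.05 apart.

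To set the factor genes against each other, the difference of their levels was taken on each array. Srebf1 minus Srebf2 was −1.04, −0.51 and −0.85 on the arrays labelled cKO, against −0.35, −0.02 and 0.23 on the control arrays. The groups did not overlap, and the mean was −0.80 ± 0.27 on the arrays labelled cKO and −0.05 ± 0.29 on the control arrays (SD, n = 3), a difference of −0.75 (exact permutation test, two-sided, p = 0.1, the smallest that 3 against 3 arrays allow). Such a difference compares changes and not the amounts of the transcripts, since probe sets differ in brightness. The same was done for Insig1 minus the mean of the 4 enzyme genes, which was 1.01, 0.54 and 0.71 on the arrays labelled cKO, against 1.73, 1.81 and 1.86 on the control arrays. The difference between the groups was −1.05, also without overlap (exact permutation test, two-sided, p = 0.1), and it was −1.18 to −0.95 with 1 array left out. The mean of the 4 enzyme genes itself changed by −0.06, so this difference largely restates the fall of Insig1.

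**Figure D2:**
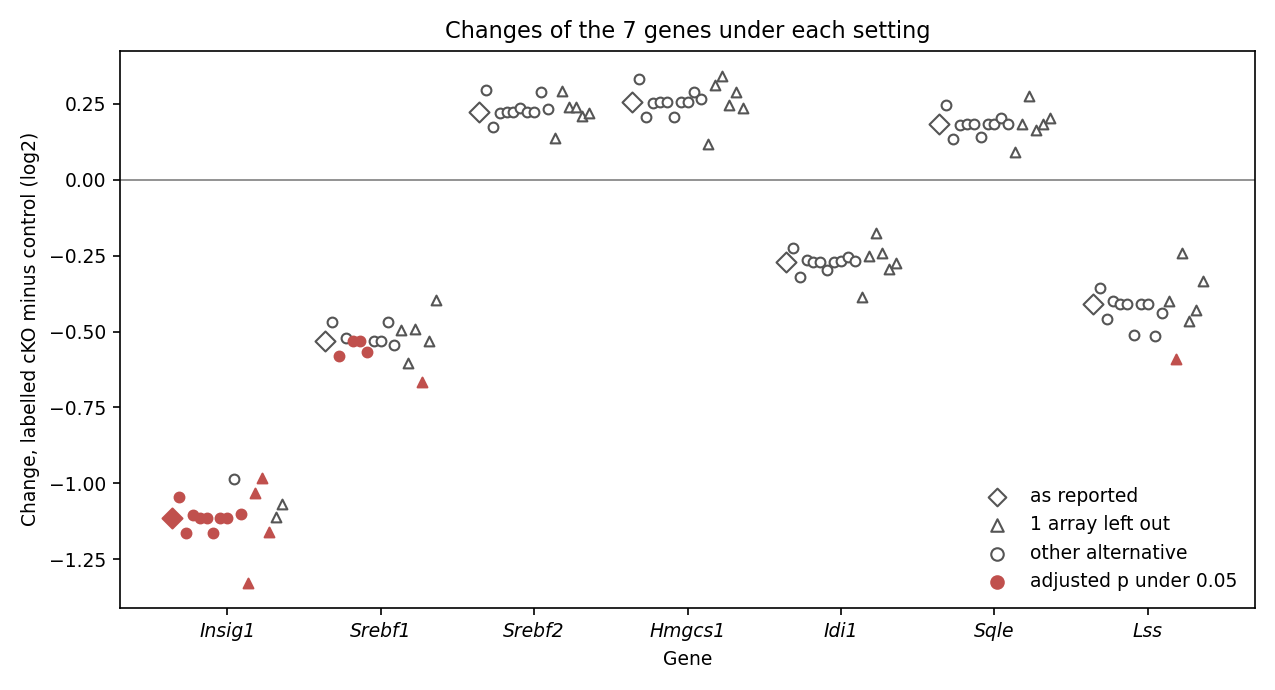
Change of each gene (arrays labelled cKO minus control arrays, log2, vertical axis) as reported (diamond), with 1 array left out (triangles) and under the other alternatives (circles), filled where the adjusted p was under 0.05. No gene crosses 0; Insig1 stays between −1.33 and −0.98, and its fill is lost in 3 of 16 alternatives.

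The 4 enzyme genes split by sign, and none passed the threshold under limma. Hmgcs1 encodes the cytosolic synthase that makes HMG-CoA, from which mevalonate is formed. Hmgcs1 (probe set 10412466) stood at 11.63, 11.24 and 11.18 on the arrays labelled cKO, against 11.07, 11.16 and 11.05 on the control arrays. Every array labelled cKO was higher than every control array, by as little as 0.02, and cKO 1 was far above the rest. The change was 0.26 ± 0.13 (95% interval −0.057 to 0.57, adjusted p = 0.277), and without cKO 1 it was 0.12. Sqle encodes squalene epoxidase, which puts the oxygen onto squalene. Sqle (probe set 10424349) stood at 10.9, 10.71 and 10.53 on the arrays labelled cKO, against 10.49, 10.53 and 10.57 on the control arrays. The groups overlapped through cKO 3, and the change was 0.18 ± 0.11 (95% interval −0.073 to 0.44, adjusted p = 0.341) or 0.09 without cKO 1.

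Idi1 and Lss had changes below 0. Idi1 encodes the isomerase that interconverts the isoprenoid building blocks. Idi1 (probe set 10482762) stood at 10.3, 10.03 and 9.88 on the arrays labelled cKO, against 10.4, 10.29 and 10.33 on the control arrays, so that cKO 1 lay among the controls. The change was −0.27 ± 0.12 (95% interval −0.55 to 0.014, adjusted p = 0.209), and it was −0.17 without cKO 3. A second Idi1 probe set, 10403413, gave −0.27 ± 0.12 (adjusted p = 0.214 in a fit of every probe set), with levels of 10.19, 9.93 and 9.77 on the arrays labelled cKO and 10.29, 10.19 and 10.21 on the control arrays. Lss encodes lanosterol synthase, which closes the sterol rings. Lss (probe set 10364194) stood at 10.14, 10.52 and 9.82 on the arrays labelled cKO, against 10.46, 10.53 and 10.72 on the control arrays. Here cKO 2, the array with the highest hepatocyte level, was the one among the controls. The change was −0.41 ± 0.18 (95% interval −0.85 to 0.028, adjusted p = 0.214), and without cKO 2 it was −0.59 and passed (adjusted p = 0.0423), while without cKO 3 it was −0.24 (adjusted p = 0.416). With the hepatocyte and erythroid level as a covariate it was −0.44 (adjusted p = 0.0655).

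The mean level of the enzyme genes differed more among the arrays labelled cKO than between the groups. Over 18 synthesis enzymes, the 4 above and 14 others, the mean level was 10.57, 10.49 and 10.26 on the arrays labelled cKO, against 10.49, 10.55 and 10.6 on the control arrays. The change of this mean was −0.11, within the SD of 0.16 among the arrays labelled cKO. Array cKO 1 was the highest of its group for 14 of the 18 enzymes, against 39.4% of all genes. Array cKO 3 was the lowest for 15 of 18, against 34.6% of all genes. In 17 of 18 enzymes cKO 1 was above cKO 3, against 55.3% of all genes, and Lbr, named after its values were seen, was the exception. Insig1 followed the same order within its group. Pancreatic acinar markers ran in this order too, at 10.89, 10.55 and 9.68 on the arrays labelled cKO, against 11.04, 9.18 and 7.73 on the control arrays, as did the mesenchymal markers, at 9.02, 8.75 and 8.18 on the arrays labelled cKO, against 8.08, 7.90 and 8.01 on the control arrays. Their part in the order of the enzymes was not tested.

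**Figure D3:**
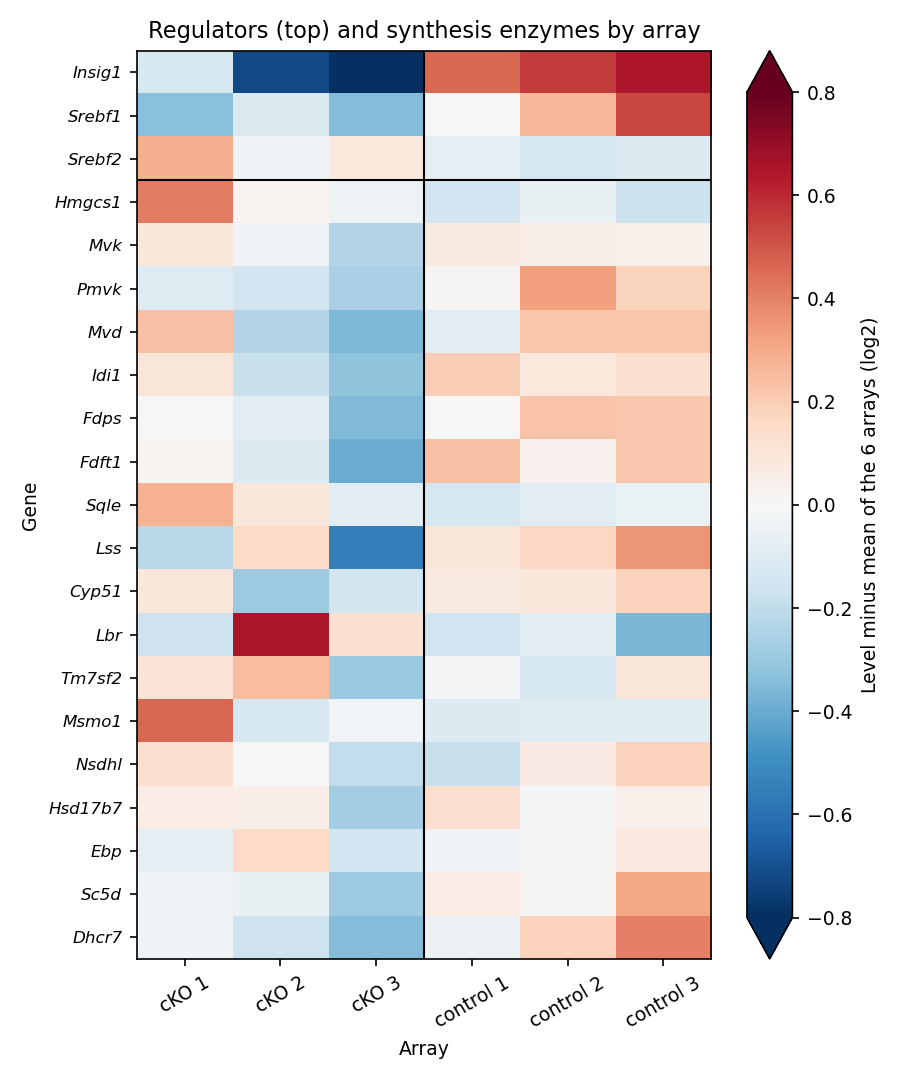
Level of each gene minus its mean over the 6 arrays (log2, colour, with the scale ending at 0.8 either way) for 3 regulator genes above the line and 18 enzymes below it, in pathway order, by array. Array cKO 3 is blue for most enzymes and cKO 1 is not, while for Insig1 all 3 arrays labelled cKO are blue and all 3 control arrays red.

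The remaining enzymes gave 0 calls under limma. Of 6 other mevalonate pathway enzymes listed, 4 were measured, and all 4 had changes below 0, with a median of −0.26, which was −0.15 without cKO 3. One of the 4 had an unadjusted p under 0.05, as had 26.6% of all genes. This was Pmvk, phosphomevalonate kinase, at 8.55, 8.5 and 8.39 on the arrays labelled cKO, against 8.66, 8.98 and 8.83 on the control arrays (change −0.34 ± 0.10, adjusted p = 0.0847). The change of Fdps, which makes farnesyl diphosphate, was −0.29 ± 0.12 (adjusted p = 0.191), and that of Mvd, mevalonate diphosphate decarboxylase, was −0.24 ± 0.18 (adjusted p = 0.45). Without cKO 3 these were −0.18 and −0.12, and without cKO 1 that of Mvd was −0.42. Of 11 enzymes of the squalene and sterol steps, 10 were measured, with 3 changes above 0 and 7 below and a median of −0.07, which was 0.01 without cKO 3. At an unadjusted p under 0.05 there were 2 of them. The change was −0.36 ± 0.14 for Dhcr7, which makes cholesterol from its immediate precursor (adjusted p = 0.164), and −0.32 ± 0.13 for Fdft1, squalene synthase (adjusted p = 0.169). It was −0.25 ± 0.12 for Sc5d, a sterol desaturase (adjusted p = 0.229). Without cKO 3 that of Fdft1 was −0.20, and without control 3 that of Sc5d was −0.16.

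Genes of sterol sensing and SREBP turnover held a rise and a fall that passed under all 16 alternatives. Of 8 measured out of 11 listed, 1 rose and 1 fell, against 5.52% and 7.42% of all genes, and the median change was 0.16. Erlin1 encodes an endoplasmic reticulum prohibitin that takes part in holding SREBPs back. It stood at 9.32, 9.47 and 9.45 on the arrays labelled cKO, against 10.23, 10.22 and 10.54 on the control arrays, a gap of 0.75 between the groups. It fell by 0.92 on the log2 scale (change −0.92 ± 0.11, adjusted p = 0.00358, and −0.84 with adjusted p = 0.0121 without control 3 and cKO 2). For its partner Erlin2, named after its values were seen, the change was 0.14 ± 0.068 (adjusted p = 0.246). Rnf145, a ubiquitin ligase of the endoplasmic reticulum that acts on SCAP, stood at 9.79, 10.16 and 9.94 on the arrays labelled cKO, against 9.29, 9.35 and 9.35 on the control arrays. It rose by 0.63 ± 0.11 (adjusted p = 0.0121, and 0.55 with adjusted p = 0.0452 without control 3 and cKO 2). The change of Fbxw7, which marks active SREBPs for degradation, was 0.29 ± 0.079 (adjusted p = 0.0625), but 0.11 (adjusted p = 0.478) when its probe sets were averaged. The changes of Scap, the escort gene, and Mbtps1, the first of the Golgi proteases, both named after their values were seen, were 0.17 ± 0.10 (adjusted p = 0.354) and 0.18 ± 0.070 (adjusted p = 0.163).

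Of 8 listed genes of cholesterol uptake and delivery, 5 were measured, of which 2 rose and 1 fell, against 5.52% and 7.42% of all genes, with a median of −0.10. Stard4, a cytosolic sterol carrier and SREBP-2 target, stood at 10.89, 10.63 and 10.71 on the arrays labelled cKO, against 10.19, 10.18 and 10.26 on the control arrays. The change was 0.53 ± 0.090 (adjusted p = 0.012), lost without control 2 (adjusted p = 0.0546). Mylip, a ubiquitin ligase of lipoprotein uptake that is induced by the sterol sensor LXR, stood at 8.77, 9.45 and 8.7 on the arrays labelled cKO, against 8.15, 8.12 and 8.13 on the control arrays. The groups did not overlap, with cKO 2 the highest array. The change was 0.84 ± 0.20 (adjusted p = 0.0406), or 0.60 without control 3 and cKO 2 (adjusted p = 0.0264), and the call was lost without cKO 1, control 1, control 2 or control 3, each left out alone (adjusted p = 0.0587, 0.112, 0.123 and 0.124). Lipa, the lysosomal lipase that frees cholesterol from lipoprotein esters, stood at 11.21, 11.13 and 10.69 on the arrays labelled cKO, against 11.79, 11.56 and 11.84 on the control arrays. The change was −0.72 ± 0.16 (adjusted p = 0.0311), lost without control 1 (adjusted p = 0.101), control 2 (0.0585) or control 3 (0.111) and without control 3 and cKO 2 (−0.72, adjusted p = 0.115). The number of calls in this list was 1 without control 1, 0 without control 2 and 1 without control 3, with 4 genes at an unadjusted p under 0.05 in each.

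Fatty acid genes known as SREBP-1 targets fell in part. Of 17 measured, 3 fell and 0 rose under limma, against 7.42% of all genes lower and 5.52% higher. Of the 17 changes, 7 were above 0 and 10 below, or 58.8% below against 52.6% of all genes. The median change was −0.18, or −0.09 without cKO 3, and 11 had an unadjusted p under 0.05, against 26.6% of all genes. These 11 were of both signs. Acly, Acaca and Acacb, named after their values were seen, were above 0 (0.26, 0.22 and 0.42, adjusted p = 0.0787, 0.153 and 0.16), and the rest below. Me1, malic enzyme, which supplies NADPH for lipid synthesis, stood at 8.98, 9.25 and 9.33 on the arrays labelled cKO, against 10.74, 10.63 and 10.81 on the control arrays. With a gap of 1.3 between the groups it fell 2.91-fold (change −1.54 ± 0.11, adjusted p = 0.000601), and its call stayed under all 16 alternatives. Fads1, a fatty acid desaturase, stood at 10.95, 11.4 and 10.97 on the arrays labelled cKO, against 11.85, 12.05 and 11.84 on the control arrays (change −0.81 ± 0.14, adjusted p = 0.0143). Its neighbour Fads2, also a desaturase, stood at 12.26, 12.2 and 12.29 on the arrays labelled cKO, against 12.61, 12.68 and 12.7 on the control arrays (change −0.41 ± 0.070, adjusted p = 0.0122). The Fads1 call was lost without cKO 3 (adjusted p = 0.0533) or control 2 (0.0597). The Fads2 call was lost without control 2 (0.0556), control 3 (0.0511) or the pair of control 3 and cKO 2 (0.0964). The change of Fasn, the fatty acid synthase gene, named after its values were seen, was −0.37 ± 0.11 (adjusted p = 0.0753).

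More of these fatty acid genes passed once cKO 2 was left out, 7 of 17 in place of 3, all lower, against 6.63% of all genes lower in the fit without cKO 2. Scd1, the main stearoyl-CoA desaturase of lipid-making tissues, is named here after its values were seen. It stood at 8.04, 10.74 and 8.02 on the arrays labelled cKO, against 10.73, 11.07 and 11.87 on the control arrays, so that cKO 2 lay at the level of the lowest control array. The change was −2.29 ± 0.76 with all arrays (adjusted p = 0.112), −3.19 without cKO 2 (adjusted p = 0.00231), −2.44 with the hepatocyte and erythroid level as a covariate (adjusted p = 0.00371) and −2.87 without control 3 and cKO 2 (adjusted p = 0.00152). The other 3 that joined, also named after their values were seen, were Gpam (−1.01, adjusted p = 0.0111), Lpin1 (−1.10, adjusted p = 0.0223) and Pnpla3 (−1.23, adjusted p = 0.0149), enzymes of glycerolipid metabolism. With all arrays their changes were −0.70 (adjusted p = 0.178), −0.45 (0.662) and −0.99 (0.055) in the same order of genes. Lpin1 did not pass with the covariate (−0.55, adjusted p = 0.297) or without control 3 and cKO 2 (−1.06, adjusted p = 0.0743). For all 12 hepatocyte markers cKO 2 was the highest array. Leaving it out did not balance the groups for this list. The list averaged 7.93 on cKO 1 and 8.02 on cKO 3, against 9.10, 7.64 and 10.62 on the control arrays. The part of hepatocyte RNA in these calls was not tested. Without control 2 the list held 1 call, Me1.

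**Figure D4:**
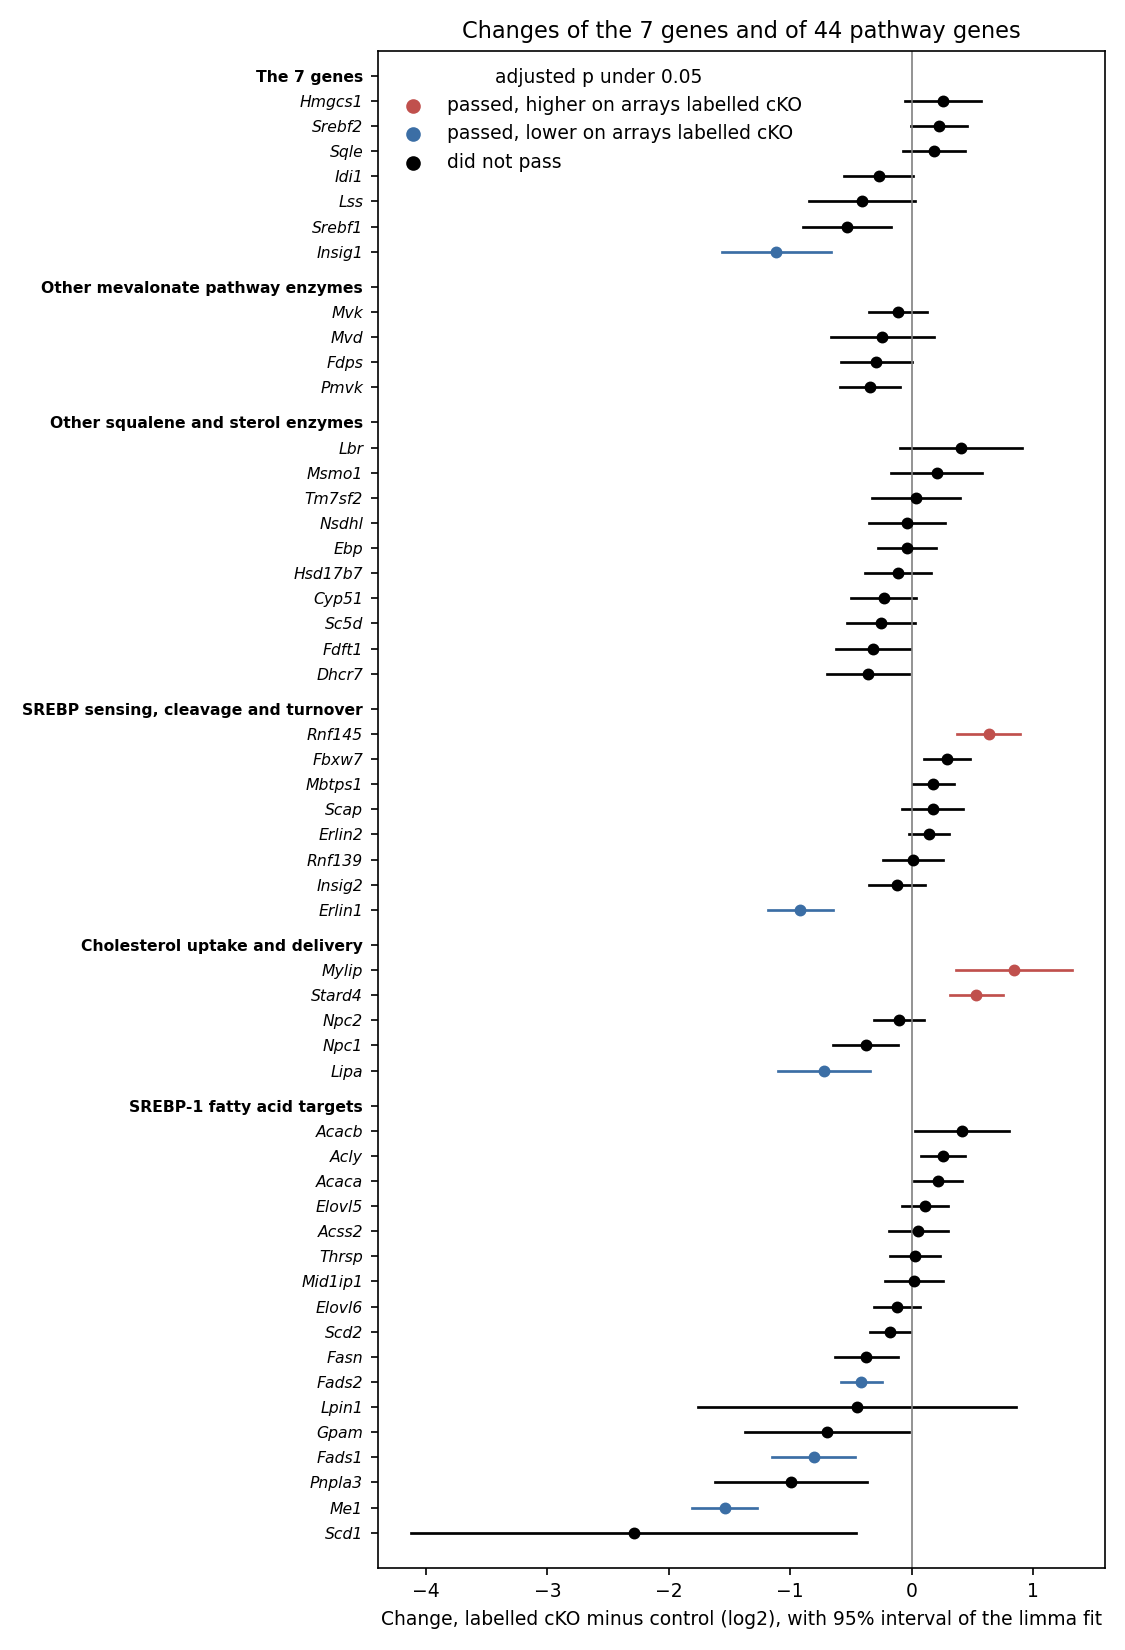
Change of the 7 genes and of 44 pathway genes (arrays labelled cKO minus control arrays, log2, horizontal axis) with the 95% interval of the limma fit, coloured where the adjusted p was under 0.05. The points of all 18 synthesis enzymes lie within 0.5 of 0, but their intervals reach −0.85 (Lss) and 0.91 (Lbr). Of genes that passed, Insig1, Erlin1 and Me1 lie at −1.11, −0.92 and −1.54. Scd1, which did not pass, lies lowest, at −2.29.

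Genes with the array pattern most like that of Insig1 were sought among 7782 other named genes whose levels spanned at least 0.5. The closest 5 were Flcn, Pacc1, Zmat4, Srgap1 and Tbc1d1, with r from 0.996 to 0.997 over the 6 arrays, and 423 genes had r over 0.95, so the pattern is a common one in these data. All 5 passed the threshold, with changes of −1.08 to −0.41. Since they were chosen by likeness to Insig1 on the same 6 arrays, these calls follow from the choice and are no separate result. Tbc1d1, a Rab GTPase-activating protein, changed by −0.99 ± 0.14 (adjusted p = 0.00702) and Pacc1, a proton-activated chloride channel, by −1.08 ± 0.15 (adjusted p = 0.00564). Of the other genes of the 7, those with such a span had r of 0.898 (Idi1), 0.794 (Srebf1), 0.682 (Lss) and −0.356 (Hmgcs1) with Insig1. For the mean of the 4 enzyme genes the closest were Ms4a6b, Igkv4-55, Vmn1r71, Adamts5 and Klre1, with r from 0.951 to 0.986, at levels of 3.74 to 7.13 and with none past the threshold. The lack of calls likewise follows from how they were chosen. These correlations describe 6 arrays that share the contrast and the library differences above.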

How the data were processed

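RNA of 6 samples was measured on Affymetrix Mouse Gene 1.0 arrays, 3 labelled cKO and 3 control, grouped by the source names in the labels. The authors deposited log2 levels of 35512 probe sets, computed in dChip, per the labels of the series. The sources used here give no version, background correction or normalization. The log2 scale was read from the values (0 to 14.25), and centring is unknown, with array medians of 7.73 to 7.84. Genes were named from the platform annotation by gene ID in a RefSeq table of GRCm38.p6 (21698 of 21789 probe sets with 1 gene matched; 1621 had several genes and 12102 none). The probe set with the highest mean was kept per gene.

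Levels were compared with limma 3.58.1 in R 4.3.3 (lmFit, eBayes, two-sided, Benjamini-Hochberg over 19938 genes, threshold 0.05), and tested on simulated data. There it recovered 32% of changes of 0.5 on the log2 scale, 66% of changes of 1 and 94% of changes of 2. Far fewer genes were changed there, with 149 calls against 2580 in the real data, which makes the adjusted threshold stricter. These shares therefore do not measure the recovery in the real fit. Small changes can still be missed, and a gene that did not pass is not shown to be unchanged. Per-array differences used exact permutation tests in scipy 1.17.1. The number of arrays limits precision. The genes, the lists and the tests were chosen with earlier results of these data known. The genes named are the 7, Gata4, Gata6 and Gata5 (−0.09, adjusted p = 0.585), every gene past the threshold and the 3 smallest p in each pathway list, and the 5 closest in pattern; any other name is marked as picked with its values in view. Immune markers averaged 7.6 to 9.45 on the arrays labelled cKO and 7.95 to 8.42 on the control arrays, endothelial 6.7 to 8.62 and 7.2 to 8.02, and neuronal and glial 7.53 to 7.89 and 8.09 to 8.11. The last list had 3 measured genes and rests largely on Ret (−1.40 ± 0.20, limma adjusted p = 0.0064). The changes of Elavl4 and Sox10 were 0.10 and −0.05 (adjusted p = 0.598 and 0.785). Of the 6 immune markers Csf1r fell (−2.22 ± 0.40, adjusted p = 0.0148), while the others had changes above 0. These genes were named after their values were seen.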

Additional observations from a re-analysis of the deposited data

How the results depend on the processing

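The alternatives were quantile normalization, median centring, log2(value + 32), removal of the dimmest genes, trended robust eBayes, array weights, a block for the replicate number, averaging a gene's probe sets, control 3 and cKO 2 left out together, the hepatocyte and erythroid covariate, and each array left out. None reversed a change of the 7 genes. Of the 7 genes, 2 passed, both lower, with median centring, without the dimmest genes, with trended robust eBayes and with array weights (Insig1 and Srebf1), and 0 without control 3 and cKO 2, where 4 had an unadjusted p under 0.05. With 1 array left out the count was 0 to 2: 2 without cKO 2 (Insig1 and Lss) or control 1 (Insig1 and Srebf1), and 0 without control 2 or control 3, with 2 at an unadjusted p under 0.05 in each. Among all genes 1586 passed without control 3 and cKO 2, and 1482 to 2281 with 1 array left out, of which 1482 without control 2, 1514 without control 3 and 1587 without cKO 3. Array weights gave 1 mevalonate enzyme, Pmvk (adjusted p = 0.0439). In the uptake list 0 to 4 genes passed with 1 array left out. Of the fatty acid genes 5 passed with quantile normalization, array weights or without control 3 and cKO 2, 6 without the dimmest genes and 7 with the covariate, with 1 of them higher under quantile normalization, without the dimmest genes and with the covariate, against 1 to 7 with 1 array left out. The sensing list had 2 calls throughout, the sterol enzymes 0. Same-numbered arrays of the groups did not deviate together (r = −0.02, −0.42 and −0.18), and the numbers were not taken as pairs. Deviations from means of 3 arrays are not independent, so this check cannot exclude a shared litter or batch. With the replicate block 1449 genes passed, 622 higher and 827 lower, the uptake list had 0 calls, and Insig1 had an adjusted p of 0.0498. The block also ended the calls of Gata4 (0.0521), Fads2 (0.0646), Flcn (0.0671), Zmat4 (0.076) and Srgap1 (0.0833), besides those of Mylip (0.0785), Stard4 (0.0522) and Lipa (0.0902). With 1 array left out the changes of Ms4a6b ran from −0.17 to 0.11, of Igkv4-55 from −0.14 to 0.12, of Vmn1r71 from −0.21 to 0.13, of Adamts5 from −0.15 to 0.13 and of Klre1 from −0.43 to 0.46, each lowest without cKO 1 and highest, above 0, without cKO 3. Klre1 also turned positive with quantile normalization (0.023) and log2(value + 32) (0.014). Beyond what a smaller number of arrays or genes brings, the cause was not tested. Signal over background is unknown.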
